A study of Mus musculus with 2 samples.

Results

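High-mitochondrial barcodes are droplet barcodes in which transcripts of the mitochondrial genome make up an unusually large share of the captured RNA. They were chosen by their mitochondrial share, as barcodes with at least 200 detected genes in which the 13 mt- genes gave more than 10% of all UMIs (unique molecular identifiers, 1 per counted transcript). In the shPml library 466 of 2220 such barcodes passed that limit, and in the shCTRL library 1383 of 2239, together 1849 of 4459. The 1754 shPml and 856 shCTRL barcodes at or under 10% are called low-mitochondrial below. Since the share of mt- UMIs chose the barcodes, it is given as a description only.

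The cells came from tumours of 4T1, a mouse mammary carcinoma line, grown in BALB/c mice 6 to 8 weeks old. In the shPml group the injected 4T1 cells expressed a short hairpin RNA named for Pml, and in the shCTRL group a control hairpin. Both were placed in the mammary fat pad in 50 µl, and tumours were taken after 14 days. Dissociation used collagenase at 0.25 mg/ml with DNase at 50 U, red cells were lysed for 10 min, and cells were sorted for CD45, the surface marker of leukocytes. The hairpin was carried by the tumour cells, not by the leukocytes profiled here, and the number of mice behind each library is not known here. Each group had 1 library, so no p-value is given, no difference has a replicate check, and every interval is an exact 95% interval that covers counting error only.

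The mitochondrial genome encodes 13 proteins of the respiratory chain, and their messengers stay inside the organelle. When the outer membrane of a cell leaks during tissue dissociation, cytosolic messengers can escape while transcripts held in mitochondria or in the nucleus are kept, which is why a high mitochondrial share is commonly used to set barcodes aside. Lineage can still be read from a few abundant transcripts: Cd3d, Cd3e and Cd3g encode the CD3 chains of the T cell receptor complex, Cd79a and Cd79b the signalling chains of the B cell receptor, S100a8 and S100a9 the calprotectin of neutrophils, and Lyz2 the lysozyme of myeloid cells.

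The libraries held 4227187 (shPml) and 5044925 (shCTRL) UMIs. The high-mitochondrial barcodes held 478835 and 1360504 of them, with a median of 732.5 and 848 UMIs per barcode, against 1300 and 4040 in low-mitochondrial barcodes. Outside the mt- genes the medians were 503 and 554 UMIs against 1227 and 3816.5. The same barcode sequence occurred in both libraries 266 times. Of the high-mitochondrial barcodes 3 shPml and 5 shCTRL ones were shared in this way, against 263 of 1754 and 261 of 856 (30.5%) low-mitochondrial ones, so sharing touches mainly the barcodes they are compared with. Without shared barcodes the high-mitochondrial part was 23.7% (shPml) and 69.8% (shCTRL).

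High-mitochondrial barcodes made up 21.0% of the shPml library (19.3 to 22.7%) and 61.8% of the shCTRL library (59.7 to 63.8%), a ratio of 0.340 (0.305 to 0.378). The 2 libraries also differed in where the barcodes sat above the limit. In the shPml library 85 barcodes lay between 10 and 15%, 42 between 15 and 20%, 87 between 20 and 30%, 182 between 30 and 50% and 70 above 50%. In the shCTRL library the counts were 51, 56, 438, 788 and 50, so most of its 1383 barcodes fell between 20 and 50%. The median share was 32.1% in shPml and 32.7% in shCTRL high-mitochondrial barcodes, against 5.48% and 5.06% in low-mitochondrial ones. Just outside the limit, at 8 to 10%, there were 192 shPml and 46 shCTRL barcodes, and just inside, at 10 to 12%, there were 50 and 20. Ribosomal protein genes took 27.2% of the non-mitochondrial UMIs just outside and 24.4% just inside in the shPml library, and 27.5% and 26.7% in the shCTRL library, so barcodes next to the limit on either side were alike in this measure.

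**Figure D1:**
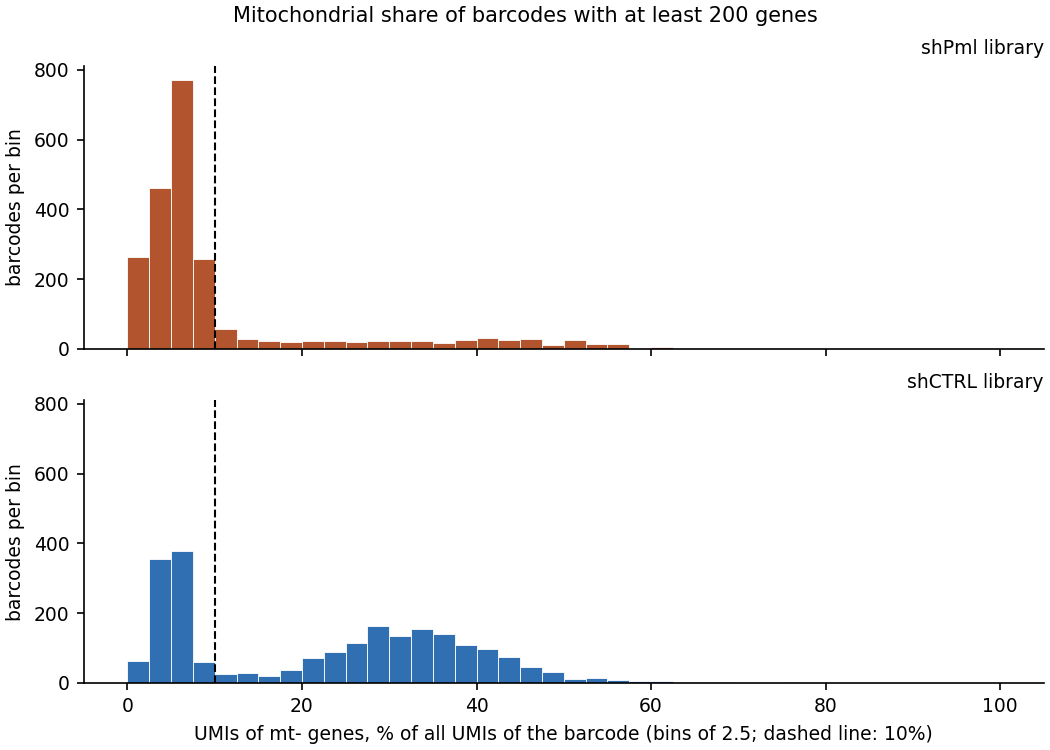
Number of barcodes (y axis) by the share of their UMIs that came from mt- genes (x axis, percent, bins of 2.5), for the shPml library above and the shCTRL library below, with the 10% limit dashed. Most shPml barcodes lie under 10%, while the shCTRL library has a second hump between 20 and 50% that holds 438 barcodes at 20 to 30% and 788 at 30 to 50%.

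The number of mt- UMIs is part of the rule and is given as a description. A high-mitochondrial barcode held a median of 255.5 (shPml) and 279 (shCTRL) mt- UMIs, against 63 and 197 in a low-mitochondrial one.

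The split of the mitochondrial UMIs among the 13 genes, which the limit did not use, was nearly the same in high- and low-mitochondrial barcodes. mt-Co3, a subunit of cytochrome c oxidase (chromosome M, 8607 to 9390, plus strand), gave 21.1% of mt- UMIs in high- and 21.5% in low-mitochondrial shPml barcodes, and 23.1% in both kinds of shCTRL barcodes. mt-Co1, the catalytic subunit of the same enzyme, gave 19.5% and 18.2% in the shPml library and 18.0% and 18.9% in the shCTRL library. mt-Cytb, of complex III, gave 9.16% and 8.74%, and 10.6% and 9.97%. mt-Nd1, of complex I, gave 4.89% and 5.32%, and 4.60% and 4.70%. The largest departure among the 13 was mt-Nd3, another complex I subunit, in the shPml library, at 1.33% against 2.65% (log2 ratio -0.996, -1.07 to -0.92). In the shCTRL library mt-Nd3 stood at 1.22% and 1.37%.

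Lineage was read from the 8 genes in 2 ways. First, every barcode was thinned to 180 non-mitochondrial UMIs, which puts deep and shallow barcodes on the same footing, and the share with at least 1 UMI of a lineage's genes was taken. Cd3 UMIs were found in 21.5% of high- and 24.9% of low-mitochondrial shPml barcodes (ratio 0.861, 0.686 to 1.07) and in 24.2% and 30.1% of shCTRL barcodes (0.804, 0.681 to 0.949). T cell transcripts were therefore about as frequent or slightly less frequent in high-mitochondrial barcodes. Cd79 UMIs were more frequent in them, in 12.9% against 1.65% of shPml barcodes (ratio 7.79, 4.92 to 12.6) and in 7.38% against 3.50% of shCTRL barcodes (2.10, 1.39 to 3.28). Without thinning the Cd3 shares were 37.8% and 66.0% (shPml) and 54.2% and 81.0% (shCTRL), and the Cd79 shares 20.4% and 5.19% (shPml) and 13.5% and 14.8% (shCTRL), so in the deeper shCTRL barcodes the Cd79 difference was seen only after thinning.

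Calprotectin UMIs were found after thinning in 14.2% of high- and 13.9% of low-mitochondrial shPml barcodes and in 3.04% and 4.09% of shCTRL barcodes. Free RNA in the droplets can give such a share. Among high-mitochondrial barcodes with Cd3 UMIs, which should lack calprotectin, 11.9% (shPml, median 571.5 non-mitochondrial UMIs) and 2.93% (shCTRL, median 593) had S100a8 or S100a9 UMIs. The calprotectin shares in high-mitochondrial barcodes thus lay near those of Cd3-bearing ones and are not read as neutrophils. In Cd3-bearing low-mitochondrial barcodes the shares were 3.89% (shPml) and 1.01% (shCTRL), below the 13.9% and 4.09% of all low-mitochondrial ones. The shares above and under the limit thus stand beside unlike backgrounds, and the part of free RNA in them was not tested. Lyz2 UMIs were found in 4.08% against 2.34% of shPml barcodes (ratio 1.74, 0.956 to 3.07) and in 0.217% against 1.29% of shCTRL barcodes (0.169, 0.030 to 0.639). The Cd79 background, taken in Cd3-bearing high-mitochondrial barcodes, was 2.27% (shPml) and 4.67% (shCTRL), below the 12.9% and 7.38% found in all of them. In Cd3-bearing low-mitochondrial barcodes it was 0.259% and 1.01%, so this background was also higher above the limit. In shCTRL the gap between 7.38% and 3.50% is thus given beside a background of 4.67% and 1.01%, and the part of free RNA or doublets in it was not tested.

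Second, each barcode was given to a lineage gate without thinning. The T gate needed at least 1 Cd3 UMI and the B gate at least 1 Cd79 UMI. The neutrophil gate needed S100a8 plus S100a9 at 1% or more of the non-mitochondrial UMIs, and the Lyz2 gate the same of Lyz2. High-mitochondrial shPml barcodes comprised 169 in the T gate (36.3%), 87 in the B gate (18.7%), 5 in the neutrophil gate, 5 in the Lyz2 gate, 8 in more than 1 lineage and 192 in none (41.2%). High-mitochondrial shCTRL barcodes comprised 675 in the T gate (48.8%), 111 in the B gate (8.03%), 0 in the neutrophil gate, 1 in the Lyz2 gate, 76 in more than 1 lineage and 520 in none (37.6%). Barcodes in no gate had Malat1 UMIs in 190 of 192 and 520 of 520 cases. UMIs of Lef1, a transcription factor of naive T cells, were found in 16.1% (shPml) and 30.6% (shCTRL) of them.

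Seen from the lineages, the share of barcodes that were high-mitochondrial was lowest in the neutrophil gate. It was 13.1% of T-gate barcodes in the shPml library (11.3 to 15.01%) and 52.3% in the shCTRL library (49.6 to 55.1%). B-gate barcodes stood at 56.9% (48.6 to 64.8%) and 66.5% (58.8 to 73.6%), above the T gate in both libraries. Of 164 shPml neutrophil-gate barcodes 3.05% were high-mitochondrial (0.997 to 6.97%), and 0 of 19 in the shCTRL library, which allows up to 17.6%. The low-mitochondrial neutrophil-gate barcodes had a median mitochondrial share of 0.584% (shPml) and 0.622% (shCTRL). In low-mitochondrial T-gate barcodes that median was 5.95% and 5.13%, and in B-gate ones 5.65% and 4.90%. The limit had already cut these groups, so the medians are a description only. Why few neutrophil-gate barcodes lay above the limit was not tested.

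**Figure D2:**
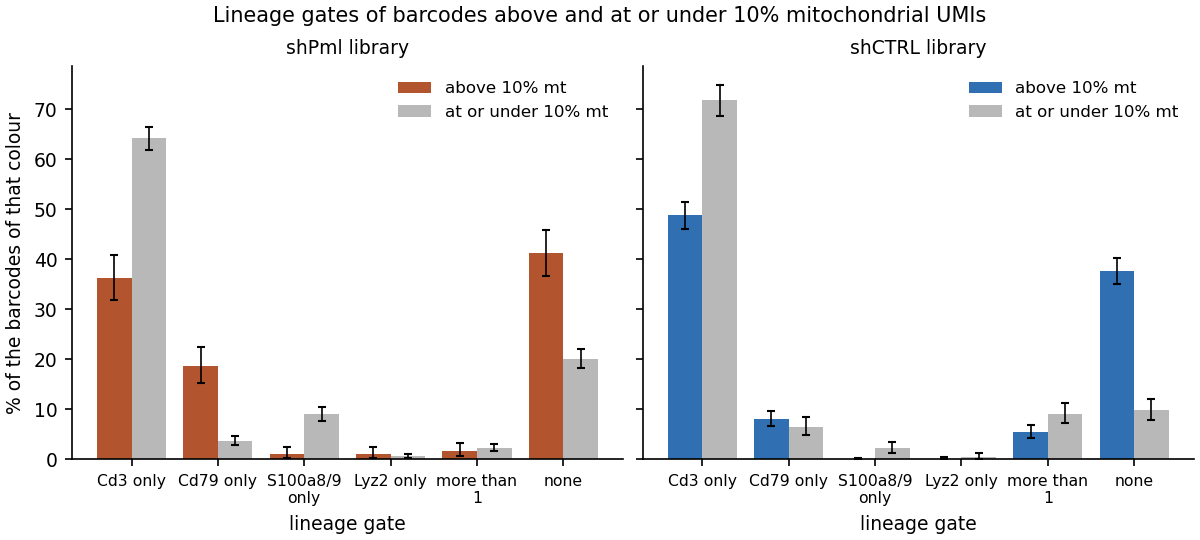
Percent of high-mitochondrial (coloured) and low-mitochondrial (grey) barcodes in each lineage gate (x axis), for the shPml library on the left and the shCTRL library on the right, with exact 95% binomial intervals as error bars. The T gate is the largest named gate in both, and the neutrophil gate is nearly empty above the limit. The B gate is taller among high-mitochondrial shPml barcodes (18.7% against 3.76%), while in shCTRL it stands at 8.03% against 6.54% with overlapping intervals.

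The low-mitochondrial shPml T cells differed from the high-mitochondrial ones in more than mitochondrial content, most clearly in Cd4 and Xist. The markers were chosen after seeing the data. In the T gate Cd4 UMIs were found in 20.1% of high- and 4.00% of low-mitochondrial shPml barcodes, and Cd8a UMIs in 17.2% and 40.2%. These shares were not thinned, and the low-mitochondrial barcodes were deeper, with a median of 1288 against 775 UMIs. As levels Cd4 stood at 468 CPM (355 to 607) above and 55.4 CPM (45.1 to 67.4) under the limit. Cd8a stood at 353 CPM (256 to 476) and 408 CPM (379 to 439), with overlapping intervals. Xist, the noncoding RNA of the inactive X chromosome and thus a mark of female cells, was found in 50.3% and 7.19%. Its level was 3508 and 299 CPM. UMIs of the Y-linked genes Ddx3y, Eif2s3y, Kdm5d or Uty were found in 8.88% and 18.3%. The Y-linked level was nearly the same, at 131 CPM (75.1 to 213) and 137 CPM (121 to 156). In the shCTRL T gate Xist was found in 66.5% and 60.5% of barcodes and Y-linked UMIs in 0 of 675 and 2.44%. The Y-linked level there was 0 CPM (up to 7.71) and 7.10 CPM (4.21 to 11.2). Cd4 UMIs were found in 18.4% of high- and 38.7% of low-mitochondrial shCTRL T-gate barcodes, and Cd8a UMIs in 10.5% and 29.1%, the latter barcodes being deeper. As levels the direction was the opposite. Cd4 stood at 322 CPM (273 to 377) above and 213 CPM (195 to 232) under the limit. Cd8a stood at 226 CPM (185 to 273) and 180 CPM (164 to 197), with overlapping intervals. The part of this makeup in the ratios below was not tested beyond the following restriction. When only barcodes with Xist UMIs were kept, 304 high- and 266 low-mitochondrial shPml ones, the Cd79 ratio after thinning was 2.125 (1.26 to 3.72) instead of 7.79, and the Cd3 ratio 1.40 (0.869 to 2.29). In the shCTRL library the same restriction gave 1.60 (0.990 to 2.66) for Cd79 and 0.774 (0.625 to 0.960) for Cd3.

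The transcripts left in high-mitochondrial barcodes were compared as levels per 1000000 non-mitochondrial UMIs (CPM), so that the mitochondrial UMIs that chose the barcodes did not enter. A log2 ratio of at least 1 or at most -1 over the low-mitochondrial barcodes is called past the fold, among genes with at least 50 UMIs. In the shPml library 30.7% of 7073 genes were higher past the fold and 9.12% lower. In the shCTRL library 29.2% of 7765 genes were higher and 8.64% lower. The median gene stood at 0.43 and 0.49. Without shared barcodes 381 instead of 671 shCTRL genes were lower past the fold, and among barcodes with under 2000 UMIs 1077 instead of 2168 shPml genes were higher. Per all UMIs, mitochondrial ones included, every ratio lies lower by 0.46 (shPml) or 0.48 (shCTRL). The ratios of the 2 libraries, which have 266 barcode sequences in common, were set side by side. Of genes tested in both, 1354 were higher past the fold in both, which is 64.2% of those in shPml and 79.3% of those in shCTRL, and 289 were lower in both (55.7% and 44.2%). Across the 6659 genes Pearson's r was 0.805 and Spearman's rho 0.821, as a description. Without shared barcodes, a restriction chosen after seeing the data, r was 0.792 and rho 0.795 over 5826 genes, with 1166 genes higher and 171 lower past the fold in both. Of all genes tested, 63.8% (shPml) and 67.4% (shCTRL) had a ratio above 0.

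Apart from the lineage lists described further on, the lists with medians well under 0 in both libraries included several of cytosolic proteins. Their counts of genes lower past the fold, here and below, stand beside 9.12% (shPml) and 8.64% (shCTRL) of all genes. Of 79 cytosolic ribosomal protein genes tested, 0 had a ratio above 0 in either library. The median was -0.90 in the shPml library, with 23 past the fold, and -1.20 in the shCTRL library, with 70 past the fold. Together these genes took 12.6% of non-mitochondrial UMIs in high- and 22.5% in low-mitochondrial shPml barcodes, and 13.7% and 30.9% in shCTRL barcodes. Per barcode the difference was broad rather than carried by a few: only 7.73% of high-mitochondrial shPml barcodes and 0.362% of shCTRL ones lay above the low-mitochondrial median.

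Not all ribosomal protein messengers were lower to the same degree. Rpl29, a large-subunit protein, stood at 433 and 1101 CPM in shPml (log2 -1.34, -1.59 to -1.10) and at 265 and 813 CPM in shCTRL (-1.62, -1.81 to -1.43). Rps21, a small-subunit protein, stood at 3608 and 4022 CPM (-0.16, -0.24 to -0.07) and at 5379 and 6227 CPM (-0.21, -0.26 to -0.17). Rps29 lay between, at -0.74 and -1.04. Rpl29 was thus lower past the fold in both libraries, while Rps21 was close to its low-mitochondrial level.

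The 18 cytosolic translation factors followed, with medians of -0.89 and -1.10 and 6 and 11 lower past the fold. Eef1a1, the elongation factor that brings aminoacyl-tRNA to the ribosome, stood at 3247 against 7403 CPM in shPml (log2 -1.19, -1.28 to -1.10) and at 3332 against 9224 CPM in shCTRL (-1.47, -1.52 to -1.42). Tpt1, a small abundant cytosolic protein, was at -1.09 and -1.28. Npm1, the nucleolar chaperone nucleophosmin, was at -1.25 and -1.32 although its protein is nuclear.

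Genes of the cytoskeleton (25 tested) had medians of -0.66 and -1.01, with 5 and 13 lower past the fold. Tmsb4x, the actin-binding thymosin beta 4, stood at 5302 against 12180 CPM in shPml (-1.20, -1.27 to -1.13) and 4227 against 11112 CPM in shCTRL (-1.39, -1.44 to -1.35). Actb, beta-actin, was at -0.66 and -0.92. The 15 glycolysis genes had medians of -1.24 and -0.84, led by Gapdh, at 509 against 2133 CPM (-2.07) and 268 against 1166 CPM (-2.12). In the T gate alone the glycolysis medians were -0.49 and -0.43 and Gapdh stood at -1.22 and -1.97. In the B gate the medians were -1.49 (9 genes) and -0.30 (6 genes).

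Nuclear-encoded subunits of the respiratory chain were mostly lower. Their 69 genes had medians of -0.64 and -0.91, with 8 and 31 lower past the fold and 8 and 3 above 0. Atp5g1, a messenger for the membrane ring of ATP synthase, stood at 69.2 against 223 CPM in shPml (-1.69, -2.36 to -1.09) and 73.3 against 179 CPM in shCTRL (-1.29, -1.67 to -0.93). Atp5c1, the central stalk of that enzyme, was at -1.35 and -1.23. Atp5a1, its alpha subunit, was one of the few above 0, at 0.43 (0.19 to 0.65) and 0.34 (0.17 to 0.50). The median of this list per barcode was 0.790% against 1.90% of non-mitochondrial UMIs (shPml) and 0.729% against 1.33% (shCTRL).

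**Figure D3:**
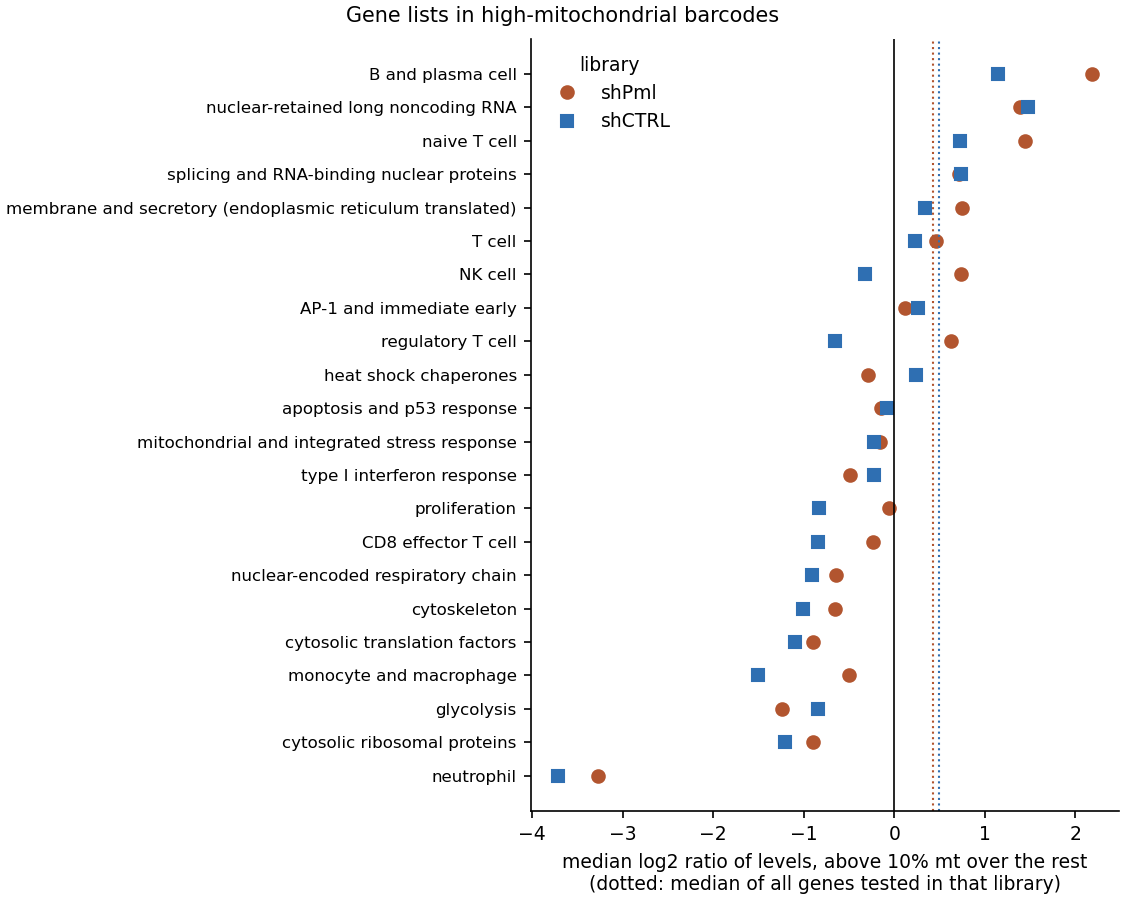
Median log2 ratio of levels, high- over low-mitochondrial barcodes (x axis), for each gene list with at least 5 members tested in both libraries (y axis), as circles for shPml and squares for shCTRL. Dotted lines mark the median of all genes tested (0.43 and 0.49). Cytosolic families lie to the left of 0 in both libraries, and nuclear noncoding RNA and splicing genes to the right.

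Nuclear RNA was higher. Of the noncoding RNAs known to stay in the nucleus, 6 could be tested in shPml and 7 in shCTRL. All of them were above 0, with medians of 1.39 and 1.47. Of them 5 and 4 were higher past the fold, where 30.7% and 29.2% of all genes were. Protein-coding genes with transcripts above 8000 nt, described further on, had medians of 1.54 and 1.37. The part of transcript length in the ratios of the nuclear RNAs was not tested. Malat1, which sits in nuclear speckles (chromosome 19, 5795690 to 5802672, mm10), stood at 54718 CPM in high- and 18888 CPM in low-mitochondrial shPml barcodes (log2 1.53, 1.51 to 1.56) and at 71703 and 25834 CPM in shCTRL ones (1.47, 1.46 to 1.49). Per barcode its median share was 5.19% against 1.10% and 6.89% against 2.45%, and 83.9% and 94.5% of high-mitochondrial barcodes lay above the low-mitochondrial median. Kcnq1ot1, an imprinted chromatin-bound RNA, was at 3.06 and 2.34.

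Xist (chromosome X, 103460366 to 103483254) stood at 4556 against 431 CPM in shPml (3.40, 3.30 to 3.50) and 3223 against 705 CPM in shCTRL (2.19, 2.11 to 2.27). Only female cells make it. Y-linked UMIs were found in 245 of 1754 low- and 19 of 466 high-mitochondrial shPml barcodes, without thinning. The Y-linked levels were 82.2 CPM (73.1 to 92.2) and 60.2 CPM (36.8 to 92.9), with overlapping intervals. The part of sex makeup in the Xist ratio was not tested. Within the B gate, where Y-linked UMIs were found in 0 of 87 high- and 1 of 66 low-mitochondrial shPml barcodes, Xist stood at 6639 against 1200 CPM. In the shCTRL B gate it stood at 3077 against 809 CPM. Its antisense partner Tsix was at 3.53 and 2.42, but the sources used here do not say that the counting used the strand, so reads of the 2 cannot be told apart. Neat1, the scaffold RNA of paraspeckles, differed least of the nuclear RNAs named, at 0.29 (0.10 to 0.46) and 0.50 (0.34 to 0.66). Within the T gate it was at 1.18 and 1.003.

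Gm42418, a transcript annotated over a ribosomal RNA repeat on chromosome 17 whose counts can hold ribosomal RNA, was at 2.37 and 2.20. It stood at 12229 against 2359 CPM in shPml and 11205 against 2444 CPM in shCTRL high- and low-mitochondrial barcodes.

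Messengers for splicing and nuclear RNA-binding proteins were mostly higher. The 30 genes had medians of 0.71 and 0.73, against 0.43 and 0.49 for all genes, with 24 and 25 above 0. Past the fold were 13 in shPml and 9 in shCTRL, the latter near the 29.2% of all genes. Son, a scaffold of nuclear speckles, was at 1.37 and 1.32, and Luc7l2, a U1 snRNP-associated factor, at 1.78 and 1.30. Hnrnpa1, an abundant hnRNP of the same list, was lower, at -0.78 and -0.70. Per all UMIs the list median was 0.25 in both libraries.

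Some of the genes with the firmest higher levels, outside noncoding RNA, are named here with the range of their transcript lengths. Arhgap45, a GTPase-activating protein of leukocytes, stood at 740 against 174 CPM in shPml (2.09, 1.87 to 2.31) and 1713 against 428 CPM in shCTRL (2.001, 1.90 to 2.10). Nup210, a nuclear pore membrane protein, was at 2.69 and 2.04. Kmt2d, a histone H3 lysine methyltransferase, was at 2.52 and 2.10. Man2a2, a Golgi mannosidase, was at 3.11 and 2.22, and Atp2a3, a calcium pump of the endoplasmic reticulum, at 2.87 and 2.25. Gcn1, a ribosome-bound sensor partner, was at 2.29 and 2.14, and Ccdc88c at 2.45 and 2.05. The longest annotated transcripts of these genes run from 3970 nt (Arhgap45), inside the class of 2000 to 4000 nt used below, to 19823 nt (Kmt2d).

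Transcript length was then examined across all protein-coding genes outside the ribosomal protein list, a choice made after seeing the data. The median log2 ratio climbed through each length class: in shPml it was -0.69 up to 1000 nt, -0.31 to 2000 nt, 0.28 to 4000 nt, 1.03 to 8000 nt and 1.54 above 8000 nt. In shCTRL it was -0.83, -0.35, 0.38, 0.99 and 1.37. Of genes with transcripts above 8000 nt, 77.0% (of 421, shPml) and 73.8% (of 469, shCTRL) were higher past the fold, against 1.79% and 0.896% of 335 genes up to 1000 nt. Across genes Spearman's rho between length and ratio was 0.573 (6861 genes) and 0.609 (7489 genes). Genes are not independent replicates, and length here is that of the longest annotated transcript, not of the molecules counted.

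The length pattern was also present within single lineages. In the T gate the medians ran from -0.58 to 1.29 in shPml and from -0.76 to 1.29 in shCTRL, and in the B gate from -1.11 to 1.46 and from -0.73 to 1.14. Depth differed between the groups compared, with the medians given above. Among barcodes with under 2000 UMIs in both groups, the class above 8000 nt stood at 1.51 and 1.68 and the class up to 1000 nt at -0.86 and -1.37. Giving each barcode the same weight gave 1.56 and 1.35 for the longest class.

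**Figure D4:**
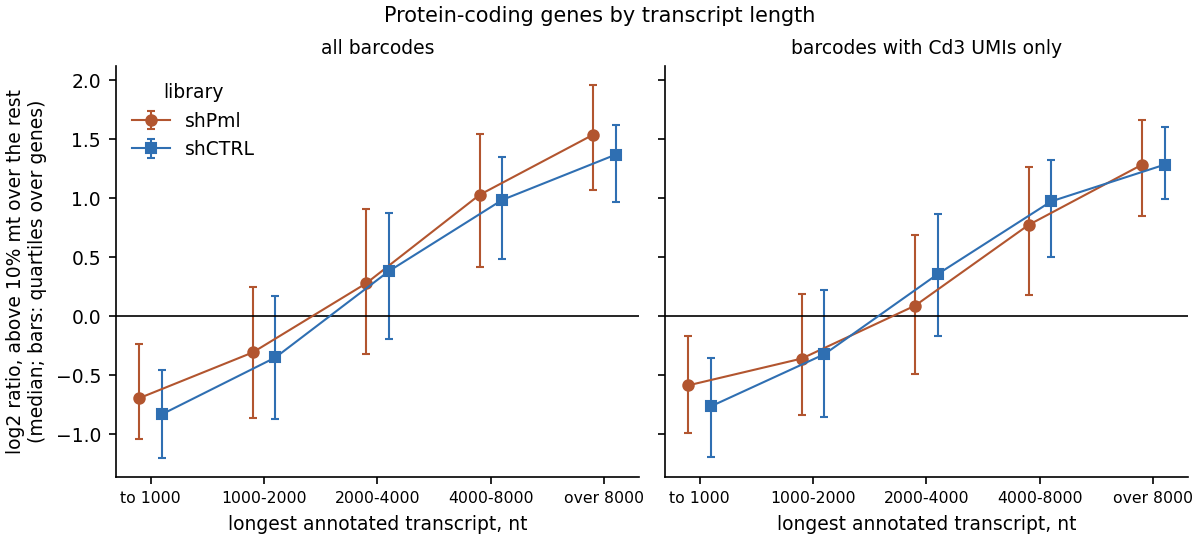
Log2 ratio of levels, high- over low-mitochondrial barcodes (y axis, median with quartiles over genes as bars), by length class of the longest annotated transcript (x axis, nt), for protein-coding genes outside the ribosomal protein list. All barcodes are on the left and the T gate is on the right, and in both panels the median climbs from below 0 in the shortest class to above 1 in the longest in each library.

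Messengers translated at the endoplasmic reticulum were not lower as a group. The 28 membrane and secretory genes had medians of 0.74 (24 above 0, 7 past the fold) and 0.34 (21 above 0, 1 past the fold), to be read against 0.43 and 0.49 for all genes. Both counts past the fold lay below the 30.7% and 29.2% of all genes. Ptprc, which encodes the CD45 used for the sort, stood at 2458 against 725 CPM (1.76, 1.65 to 1.88) and 2543 against 910 CPM (1.48, 1.40 to 1.56). The MHC class I genes H2-K1 (0.90 and 0.75) and H2-D1 (0.66 and 0.52) were higher, whereas B2m, their short light chain, was at 0.33 (0.23 to 0.43) and -0.06 (-0.12 to 0.01). Per all UMIs this list's median was 0.28 in shPml and -0.14 in shCTRL.

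Stress and death programmes showed no common direction. The 23 apoptosis and p53 genes had medians of -0.15 and -0.08. Cdkn1a, the p53 target p21, was at -2.45 and -2.89, and the survival factor Bcl2 at 2.49 and 1.87. The mitochondrial and integrated stress response list had medians of -0.16 and -0.22. Its transcription factor Atf4 was at 0.13 (-0.18 to 0.42) and -0.22 (-0.45 to -0.00). The immediate early list had medians of 0.11 and 0.26, with Fosb, an AP-1 subunit, at 1.35 and 1.33.

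Lineage genes were also compared as levels. Cd79a stood at 966 CPM in high- and 206 CPM in low-mitochondrial shPml barcodes (2.23, 2.03 to 2.42) and at 457 and 261 CPM in shCTRL ones (0.81, 0.64 to 0.98). Cd79b stood at 304 and 94.3 CPM (1.69, 1.35 to 2.01) and at 232 and 105 CPM (1.14, 0.89 to 1.39). B cell genes were higher as a group: 14 of 19 tested in shPml and 11 of 18 in shCTRL were past the fold, with medians of 2.18 and 1.14. Of all genes 30.7% and 29.2% were higher past the fold. Within the B gate the list had medians of 0.89 and 0.53, with 8 and 4 of 17 higher past the fold. There 25.6% and 18.2% of all genes were, so the list's ratios do not measure B cell frequency alone. Ebf1, a transcription factor that specifies B cells, was at 3.10 and 1.93, Ms4a1, the B cell surface protein CD20, at 2.61 and 1.21, and Ighm, the IgM heavy chain, at 2.18 and 1.36.

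Plasma cell genes were lower instead, but on few barcodes. Jchain, which joins IgM and IgA into polymers, was at -1.89 and -3.40, and Igkc, the kappa light chain, at -0.98 and -1.73. A single low-mitochondrial barcode held 58.9% (shPml) and 64.0% (shCTRL) of the low-mitochondrial Igkc UMIs. Without the barcode with the most Igkc UMIs in each group the ratio was 0.18 (0.05 to 0.31) in shPml and -0.67 (-0.77 to -0.58) in shCTRL, and that of Jchain was -1.20 and -2.06. Igha, the IgA heavy chain, had 0 UMIs in high-mitochondrial barcodes and 705 and 290 in low-mitochondrial ones, 705 and 289 of them in 1 barcode.

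The CD3 genes lay above 0 in shPml, with Cd3d alone clear of 0 by its interval, and below 0 in shCTRL. The shPml direction of Cd3d did not hold: it changed sign per all UMIs, among barcodes with under 2000 UMIs and with each barcode given the same weight. Cd3d stood at 430 and 349 CPM (0.30, 0.04 to 0.55) in shPml and at 475 and 546 CPM (-0.20, -0.35 to -0.05) in shCTRL. Cd3e stood at 512 and 447 CPM, and 586 and 724 CPM. Cd3g stood at 506 and 484 CPM, and 428 and 705 CPM (-0.72, -0.88 to -0.57). Other T cell genes differed by gene: Trbc2, a constant chain of the T cell receptor, was at -0.47 and -0.42, and Cd6, a surface receptor of T cells, at 1.75 and 1.35. Naive T cell genes were all above 0 (10 of 10 in both libraries, medians 1.44 and 0.72), against 63.8% and 67.4% of all genes. Past the fold were 7 of them in shPml, where 30.7% of all genes were, and 2 in shCTRL, below the 29.2% of all genes. Within the T gate the list had medians of 1.56 and 0.55. Within the B gate it had medians of 1.15 and 1.39, with 5 of 5 tested above 0 in each library. Higher levels of this list were thus not particular to T-gate barcodes. Satb1, a chromatin organiser of T cells, was at 2.69 and 1.52, and Lef1 at 2.21 and 0.88.

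Neutrophil genes were far lower, with 22 of 22 and 15 of 18 past the fold and medians of -3.28 and -3.71. Of all genes 9.12% and 8.64% were lower past the fold. In shPml 2 of the 22 had 0 UMIs above the limit and entered at the floor of 3 counts. S100a8 stood at 509 against 11740 CPM in shPml (-4.53, -4.76 to -4.31) and at 161 against 1584 CPM in shCTRL (-3.30, -3.55 to -3.07). S100a9 was at -4.30 and -4.07, and 1 high-mitochondrial barcode held 49.4% and 38.8% of its UMIs above the limit. Within the T gate S100a8 was higher, not lower, at 1.37 and 2.62, with CPMs of 197 against 76.4 and 77.3 against 12.6, beside the background shares of calprotectin given above. Il1b, which encodes interleukin 1 beta, was at -3.08 and -5.32, and Cxcl2, a neutrophil chemoattractant, at -3.10 and -4.42. Lyz2 was at -0.29 (-0.48 to -0.11) in shPml, at 770 against 943 CPM, and at -4.04 in shCTRL, at 26.9 against 444 CPM. Its shPml direction did not hold: among barcodes with under 2000 UMIs it was at 1.71, and with each barcode given the same weight at 0.41. Ccl5, a chemokine of effector T cells with a short transcript, was at -1.81 and -1.96, and within the T gate at -1.75 and -1.84.

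Since lineage makeup differed, the families were read again inside the T gate, where 22.3% of 4890 genes were higher past the fold and 9.94% lower in shPml, and 29.1% of 6375 higher and 8.31% lower in shCTRL. Ribosomal protein genes had medians of -0.88 and -1.32 (24 and 71 of 79 lower past the fold), nuclear-encoded respiratory chain genes -0.64 and -0.89, and translation factors -0.85 and -1.19. Nuclear noncoding RNAs had medians of 1.68 (5 tested) and 1.24 (6 tested), and splicing genes 0.70 and 0.75. In the B gate, where 25.6% of 1350 genes were higher and 21.4% lower past the fold in shPml, and 18.2% of 959 higher and 8.97% lower in shCTRL, ribosomal protein genes had medians of -1.39 and -0.85. Among barcodes with Xist UMIs, ribosomal protein genes had medians of -1.07 and -1.21 and took 9.86% against 19.7% (shPml) and 13.7% against 31.0% (shCTRL) of non-mitochondrial UMIs. The ribosomal protein list thus had the same direction in both gates and among barcodes with Xist UMIs, a restriction chosen after seeing the data.

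The change in composition was not a step at 10%. In the shPml library ribosomal protein genes took 29.4% of non-mitochondrial UMIs in barcodes of 5 to 10%, 20.9% at 10 to 15%, 14.1% at 15 to 20% and 7.54% at 20 to 30%. In the shCTRL library the values were 33.6%, 22.7%, 11.8% and 11.6%. Above 30% they were somewhat higher again, at 8.99% and 10.7% (shPml) and 13.3% and 15.6% (shCTRL). The nuclear noncoding RNAs took 1.59% at 5 to 10%, 2.95% at 10 to 15% and 8.32% at 20 to 30% in shPml, and 2.96%, 5.13% and 8.56% in shCTRL. Tmsb4x went from 12638 CPM at 5 to 10% to 2582 CPM at 20 to 30% in shPml, and from 11160 to 3689 CPM in shCTRL. Barcodes of 10 to 15% thus lay between the low-mitochondrial ones and those above 20%.

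**Figure D5:**
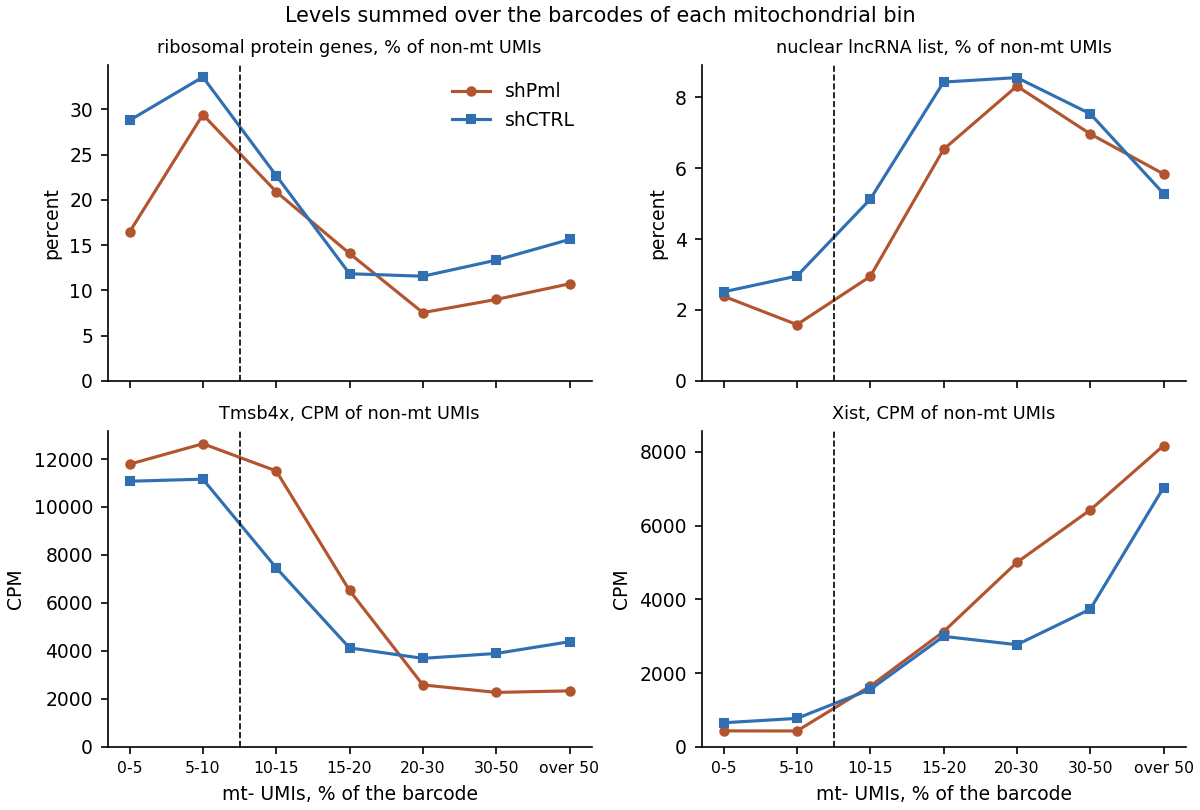
Levels summed over the barcodes of each bin of mitochondrial share (x axis, percent of UMIs): ribosomal protein genes and nuclear noncoding RNAs as percent of non-mitochondrial UMIs (top), and Tmsb4x and Xist in CPM (bottom), with shPml as circles, shCTRL as squares and the 10% limit dashed. Ribosomal protein genes and Tmsb4x are lower from 10 to 15% onward, reaching 7.54% and 2582 CPM at 20 to 30% in shPml, while Xist is highest above 50%.

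The high-mitochondrial barcodes of the 2 groups were compared with each other, the comparison the study's design implies. Of 4572 genes 7.13% were higher in shPml past the fold and 5.16% lower. The median was -0.07 for ribosomal protein genes, 0.08 for translation factors, 0.05 for splicing genes and 0.32 for nuclear noncoding RNAs. It was higher in shPml for nuclear-encoded respiratory chain genes (0.48, 59 of 68 above 0), glycolysis genes (0.49), cytoskeleton genes (0.36) and membrane genes (0.50). The median of all genes was 0.01. With a 20% limit the cytoskeleton median changed sign. At 10 to 15% mt- UMIs lay 85 of 466 shPml but 51 of 1383 shCTRL barcodes. Among protein-coding genes outside the ribosomal protein list the median fell with transcript length, from 0.48 up to 1000 nt to -0.18 above 8000 nt. The part of mitochondrial share and of length in these medians was not tested. Lineage and activation genes differed more. All 10 naive T cell genes were lower in shPml (median -1.15, 5 past the fold), among them Klf2, a factor of quiescent T cells, at 1128 against 4783 CPM (-2.08, -2.24 to -1.93), and Lef1 at 223 against 667 CPM (-1.58). All 12 CD8 effector genes tested were higher (median 1.99, 8 past the fold), with the granzyme Gzmb at 313 against 31.2 CPM (3.32) and Ccl5 at 773 against 110 CPM (2.81). Regulatory T cell genes were higher too (median 1.30, 6 of 8 past the fold), with the same limit, since 8 of 10 were tested.

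In the T gate alone 7.28% of 2348 genes were higher and 10.8% lower past the fold. There the naive list had a median of -1.14 and the effector list 1.70, the latter with 10 of 16 genes tested. Respiratory chain genes stood at 0.71, glycolysis genes at 0.73, cytoskeleton genes at 0.72 and nuclear noncoding RNAs at -0.41. By transcript length the T-gate medians ran from 0.56 up to 1000 nt to -0.41 above 8000 nt. Y-linked UMIs were found in 8.88% of shPml and 0 of 675 shCTRL T-gate barcodes. The part of length, mitochondrial share and this makeup in the differences was not tested.

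Over all high-mitochondrial barcodes, 4 of 14 heat shock genes tested were lower past the fold in shPml and 0 higher (median -0.46). Of all genes 5.16% were lower and 7.13% higher, which is also the background for the immediate early genes below. Hspa1b stood at 1083 against 5385 CPM (-2.31, -2.47 to -2.16), Hspa1a at 981 against 4249 CPM (-2.11), both copies of the stress-induced HSP70 and near-identical, so their counts cannot be fully separated. Their cochaperone Dnajb1 was at -2.10. The 26 immediate early genes went both ways, with 5 higher and 7 lower past the fold (median -0.31), Jun, an AP-1 subunit, at -1.80 among the latter. Myeloid genes were higher: Lyz2 at 770 against 26.9 CPM (4.84, 4.24 to 5.49), Cxcl2 at 4.25 and Il1b at 4.64. They came from few barcodes: Lyz2 UMIs were found in 27 shPml and 9 shCTRL high-mitochondrial barcodes. For Thbs1, which encodes thrombospondin 1, 96 against 3 UMIs came from 12 and 2 barcodes. For Rsad2, an interferon-induced antiviral gene, 1 barcode held 82.6% of the shPml UMIs.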

How the data were processed

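Single-cell RNA was measured in 1 shPml and 1 shCTRL library of sorted CD45-positive tumour cells. The authors deposited 1 matrix of whole-number UMI counts per library, for 32285 genes and without normalization. Cell Ranger 4.0.0, R 4.3.3, Seurat 4.4.0 and the mm10 build are listed in the submitters' processing notes. The smallest barcode total was 500 UMIs, so shallower barcodes are not analysed here. Gene positions and lengths come from GENCODE vM21, where 32158 of the 32285 IDs were found.

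Counts were analysed with Python 3.11.15, NumPy 2.4.6, SciPy 1.17.1 and Matplotlib 3.10.9. Barcodes with at least 200 genes were split at 10% mt- UMIs. Levels are summed counts per 1000000 non-mitochondrial UMIs, and ratios were taken for genes with at least 50 summed UMIs. Shares have exact Clopper-Pearson intervals and ratios exact conditional Poisson intervals, all at 95%. They cover counting error only, and UMIs of 1 barcode are not independent. Thinning to 180 UMIs left no barcode out. A gene with 0 counts was set against a floor of 3 counts. Doublets were not called. Barcodes passing the gates of more than 1 lineage were counted as mixed and can be doublets or free RNA. With 1 library per group no test across samples was made.

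The rule for named genes took all mt- and lineage genes. It also took the 12 genes per direction whose interval bound lay farthest from 0 in both libraries (8 per direction in the T gate and between groups), the 15 nuclear genes of highest level and up to 4 members per list. Genes of sex, B cell and T cell subsets, Jchain, Neat1, Luc7l2 and Hnrnpa1 were chosen after their values were seen. Members and all 32 gene lists were chosen with earlier results of these data known. On simulated counts with no added spread, 96.7% (shPml, 7081 genes) and 96.2% (shCTRL, 7761 genes) of intervals held the true ratio. Of the alternatives, 17 were planned and 7 were added after seeing the data.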

Additional observations from a re-analysis of the deposited data

Results flagged for a closer look

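Several lists had medians of opposite sign in the 2 libraries when high- were set against low-mitochondrial barcodes. The difference between libraries was not tested, since each group had 1 library. Heat shock chaperones stood at -0.29 in shPml and 0.24 in shCTRL. Hsph1 was higher in both (1.33 and 1.25) and Hspa8, the constitutive HSP70, lower in both (-0.86 and -0.94), while Dnajb1 was at -1.03 and -0.15. Regulatory T cell genes stood at 0.62 and -0.66, with Ikzf2, a transcription factor of these cells, at 1.87 and 0.56 and Capg at -0.84 and -1.32. Without barcodes present in both libraries the shCTRL regulatory T cell median was 0.11, on the same side as shPml. NK cell genes stood at 0.73 and -0.32, with Gzma, granzyme A, at 1.21 and -0.32.

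Barcodes with fewer than 200 genes are outside the comparisons above. They numbered 48 (shPml) and 5 (shCTRL), and all of them were above 10% mitochondrial UMIs, with medians of 65.7% and 80.0%.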

How the results depend on the processing

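No paired analysis was possible because only 1 library stood on each side. Of the list medians recomputed under an alternative, 623 moved by less than the counting interval or spread used for them, 139 moved by more and 17 changed sign. For single genes the numbers were 357, 306 and 10, and for other results 106, 65 and 1. The causes were not tested, and depth limits genes near 50 summed UMIs.

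The percent of barcodes above the limit was 16.5 (shPml) and 59.2 (shCTRL) with a gene minimum of 300 (ratio 0.279), 17.2 and 59.5 with a limit of 15% (0.288), 15.3 and 56.99 with a limit of 20% (0.268), 25.5 and 84.1 among barcodes with under 2000 UMIs (0.303), and 23.7 and 69.8 without shared barcodes. With a limit of 20% it was 8.11 and 47.98 in the T gate, 47.7 and 58.7 in the B gate, and 26.8 and 81.6 in no gate. With at least 2 UMIs it was 10.96 and 33.3 in the T gate and 30.6 in no gate (shPml). With wider T and B genes it was 16.9 and 66.5 in the T gate and 44.6 and 89.1 in no gate.

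The ratio of lineage shares without thinning was 0.573 (shPml) and 0.670 (shCTRL) for Cd3, 3.93 and 0.911 for Cd79, so the shCTRL Cd79 direction reversed, and 0.758 for Lyz2 (shPml). Thinned to 400 UMIs, with 145 and 202 high-mitochondrial barcodes left out, S100a8 and S100a9 gave 1.35 (shCTRL). Among shPml barcodes with Xist UMIs the ratios were 1.40 for Cd3, 2.125 for Cd79, 0.537 for S100a8 and S100a9 and 0.656 for Lyz2.

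Genes higher past the fold per all UMIs numbered 1153 (shPml), 797 (shCTRL), 622 (shPml T gate) and 676 (shCTRL T gate), and genes lower 1390, 1414, 1008 and 1122. With a minimum of 1 summed UMI the higher genes numbered 5059, 3794, 4472 and 3851, and 1582 for shPml over shCTRL, and the lower ones 1083 (shCTRL) and 1020 (shPml over shCTRL). With a minimum of 20 they numbered 2102 higher (shPml T gate), 754 higher and 586 lower (shPml over shCTRL). Under 2000 UMIs they numbered 1077 higher (shPml), 556 higher and 297 lower (shPml T gate) and 860 higher (shCTRL T gate). The lower genes numbered 1031 with each barcode weighed the same (shPml), 1232 and 959 with a 20% limit for the high group (shPml, all and T gate), and 381 and 295 without shared barcodes (shCTRL, all and T gate).

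The ribosomal protein median kept its sign in every alternative run: -1.36 and -1.68 per all UMIs, -1.12 with each barcode weighed the same (shPml), -1.44 and -1.33 with the 20% limit, -1.16 and -1.12 under 2000 UMIs, -1.39 and -0.85 in the B gate, -1.07 with Xist UMIs (shPml) and -1.31 without shared barcodes (shCTRL). Nuclear noncoding RNA stood at 0.93 per all UMIs (shPml), 1.52 with the 20% limit and 2.06 under 2000 UMIs (shCTRL). Splicing genes stood at 0.25 and 0.25 per all UMIs and 0.52 in the B gate (shCTRL). Membrane genes stood at 0.28 and -0.14 per all UMIs, 0.25 in the B gate and 0.34 with Xist UMIs (shPml). In shCTRL, transcripts above 8000 nt stood at 0.89 per all UMIs and those up to 1000 nt at -1.37 under 2000 UMIs.

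Signs reversed per all UMIs for B2m (-0.13), Cd3d (-0.16), Hspa1a (-0.19) and Klf2 (-0.18) in shPml, and in shCTRL for Hspa1a (-0.0071), immediate early genes (-0.22, T gate -0.13) and T cell genes (-0.26, T gate -0.15). Under 2000 UMIs they reversed in shPml for Cd3d (-0.29), Lyz2 (1.71), monocyte genes (1.66), interferon genes (0.51) and T-gate B and plasma cell genes (0.75). With each barcode weighed the same they reversed for Cd3d (-0.11), Lyz2 (0.41), monocyte genes (0.31) and T-gate B and plasma cell genes (0.20). The last stood at 1.31 with a minimum of 1 UMI and 0.39 without shared barcodes. With the 20% limit Lyz2 (0.062, shPml) and cytoskeleton genes between groups (-0.032) reversed. Without shared barcodes they reversed in shCTRL for CD8 effector (0.33), monocyte (0.092), regulatory T cell (0.11) and proliferation genes (0.41, T gate 0.36).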

Other observations

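Of the mast cell and basophil list and of the fibroblast list, 0 genes reached 50 summed UMIs in the comparison of high- and low-mitochondrial barcodes in either library. Pecam1, an adhesion molecule of the endothelial list that leukocytes also express, was higher in high-mitochondrial barcodes, at 181 against 35.8 CPM in shPml (log2 2.34, 1.87 to 2.79) and 254 against 79.1 CPM in shCTRL (1.69, 1.43 to 1.94).

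Interferon-response genes differed by gene. Stat2, a transcription factor of the pathway, was at 2.13 and 1.59. Ifi27l2a, a short interferon-induced messenger, was at -1.09 and -1.38. Proliferation genes also differed by gene: Top2a, the mitotic topoisomerase, was at 1.04 and 0.89, and the histone variant H2afz at -0.63 and -0.97. Transcripts of Pml itself stood at 69.2 against 25.6 CPM in shPml (1.43, 0.71 to 2.11) and 124 against 43.4 CPM in shCTRL (1.51, 1.15 to 1.87) high- and low-mitochondrial barcodes. The Pml values come from sorted leukocytes and do not check the hairpin in the tumour cells.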
